A study of Homo sapiens with 16 samples.

Results

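HEK293, a widely used human cell line derived from embryonic kidney, was transfected with plasmids in 7 groups, and every group was sequenced as a library numbered replicate 1 and a library numbered replicate 2. The 14 transfected libraries, of 16 in the study, are compared here by replicate number, 7 against 7, paired by group. The groups were the empty expression plasmid pcDNA3.0 and the same plasmid with 1 of 6 cloned transcripts of LINC01016, a testis long non-coding RNA gene. The transcripts carry the names T1 and T2, CU1 and CU2, and CU1ENC and CU1ENU. Each transfection used 5 micrograms of plasmid and a Lipofectamine reagent in a 60 mm plate, and RNA was taken after 48 h. Parental cells, which received no plasmid, have 1 library of each number and serve as the untransfected reference. The labels do not say what a replicate number marks. A culture, a passage, a day, a reagent lot and a sequencing run that went with the number cannot be told apart, and nothing says that the 2 numbers are separate cultures. The 7 libraries of a number may share whatever it marks, so the 7 pairs may not be independent. The p-values below measure the spread between these libraries only.

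Plasmid DNA that reaches the cytosol can be read by nucleic acid sensors, which lead to secretion of interferon beta and interferon lambda. Interferon receptors then act through the kinases JAK1 and TYK2 on a complex that includes STAT2 and IRF9, which binds a short element, the ISRE, in promoters of antiviral genes. YAP and TAZ are coactivators that work with TEAD factors and enter the nucleus when cells are spread, tense or sparse. HEK293 cells carry adenoviral E1 genes, one of whose products binds p53, and still transcribe p53 target genes.

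The promoters of 5 genes that the results turn on are shown as the 250 bases before the annotated start, read on the gene's strand from RefSeq (GRCh38.p14). Capitals mark GAAANNGAAA or its reverse complement, a core of the ISRE, in the first 3. In the last 2 they mark GGAATG or its reverse complement, a core of the TEAD site. Overlapping matches are capitalised as 1 run.
ISG15, chr1:1013247-1013496, plus strand: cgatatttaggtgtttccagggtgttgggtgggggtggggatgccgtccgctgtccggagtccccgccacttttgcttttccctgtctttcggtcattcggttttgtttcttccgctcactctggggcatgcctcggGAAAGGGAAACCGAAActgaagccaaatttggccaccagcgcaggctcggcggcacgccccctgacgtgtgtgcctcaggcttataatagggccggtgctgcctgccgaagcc
IFIT3, chr10:89327747-89327996, plus strand: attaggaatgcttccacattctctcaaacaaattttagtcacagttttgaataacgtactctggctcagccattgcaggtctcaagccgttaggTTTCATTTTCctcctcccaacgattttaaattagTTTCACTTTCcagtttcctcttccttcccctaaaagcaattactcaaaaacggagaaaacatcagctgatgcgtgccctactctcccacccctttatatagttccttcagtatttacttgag
BST2, chr19:17405631-17405880, minus strand: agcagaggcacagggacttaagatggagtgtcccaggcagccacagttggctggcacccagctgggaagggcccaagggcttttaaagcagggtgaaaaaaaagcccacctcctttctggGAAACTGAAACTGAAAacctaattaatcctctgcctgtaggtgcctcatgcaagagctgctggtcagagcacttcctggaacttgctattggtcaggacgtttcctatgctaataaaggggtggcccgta
CCN2, chr6:131951373-131951622, minus strand: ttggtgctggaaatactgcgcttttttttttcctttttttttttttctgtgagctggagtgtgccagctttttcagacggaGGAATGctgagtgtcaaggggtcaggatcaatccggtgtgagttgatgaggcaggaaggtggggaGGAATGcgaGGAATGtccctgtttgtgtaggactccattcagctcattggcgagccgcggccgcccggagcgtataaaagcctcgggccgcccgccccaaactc
ANKRD1, chr10:90921088-90921337, minus strand: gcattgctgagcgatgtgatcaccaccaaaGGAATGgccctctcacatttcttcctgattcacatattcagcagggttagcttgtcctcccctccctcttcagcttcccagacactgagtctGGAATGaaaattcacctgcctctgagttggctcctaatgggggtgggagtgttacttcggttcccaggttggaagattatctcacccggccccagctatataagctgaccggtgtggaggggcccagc
The ISRE core stood in 19 of the 34 interferon-stimulated genes with a promoter in the table (55.9%), against 839 of 27305 promoters in all (3.07%). The TEAD core stood in 6 of 16 YAP and TEAD target promoters (37.5%), against 11.9% of all promoters. ISG15, IFIT3, BST2 and ANKRD1 have 2 matches each and CCN2 has 3. These are matches of letters and not measured binding.

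Replicate 1 and replicate 2 differed in many genes, mostly by little. Of 19103 genes tested with edgeR's quasi-likelihood test, 3337 were higher in replicate 2 (17.5%) and 3369 were lower (17.6%) at a Benjamini-Hochberg adjusted p under 0.05. Scaling by library totals alone gave 2516 higher and 3973 lower, so the even split depends on the scaling. At least 2-fold differences were almost all in 1 direction, with 14 genes higher (0.0733%) and 351 lower (1.84%) in replicate 2. With DESeq2 these counts were 4 and 233, and with the low-count filter set by replicate number 4 and 228. Every replicate 2 library stood above every replicate 1 library for 1475 genes (7.72%) and below for 1051 (5.5%). The median log2 difference over all tested genes was -0.02. Below, differences are log2 of replicate 2 over replicate 1 with their standard error (SE), and levels are CPM (counts scaled to library size) given as lowest, median and highest of 7 libraries.

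**Figure D1:**
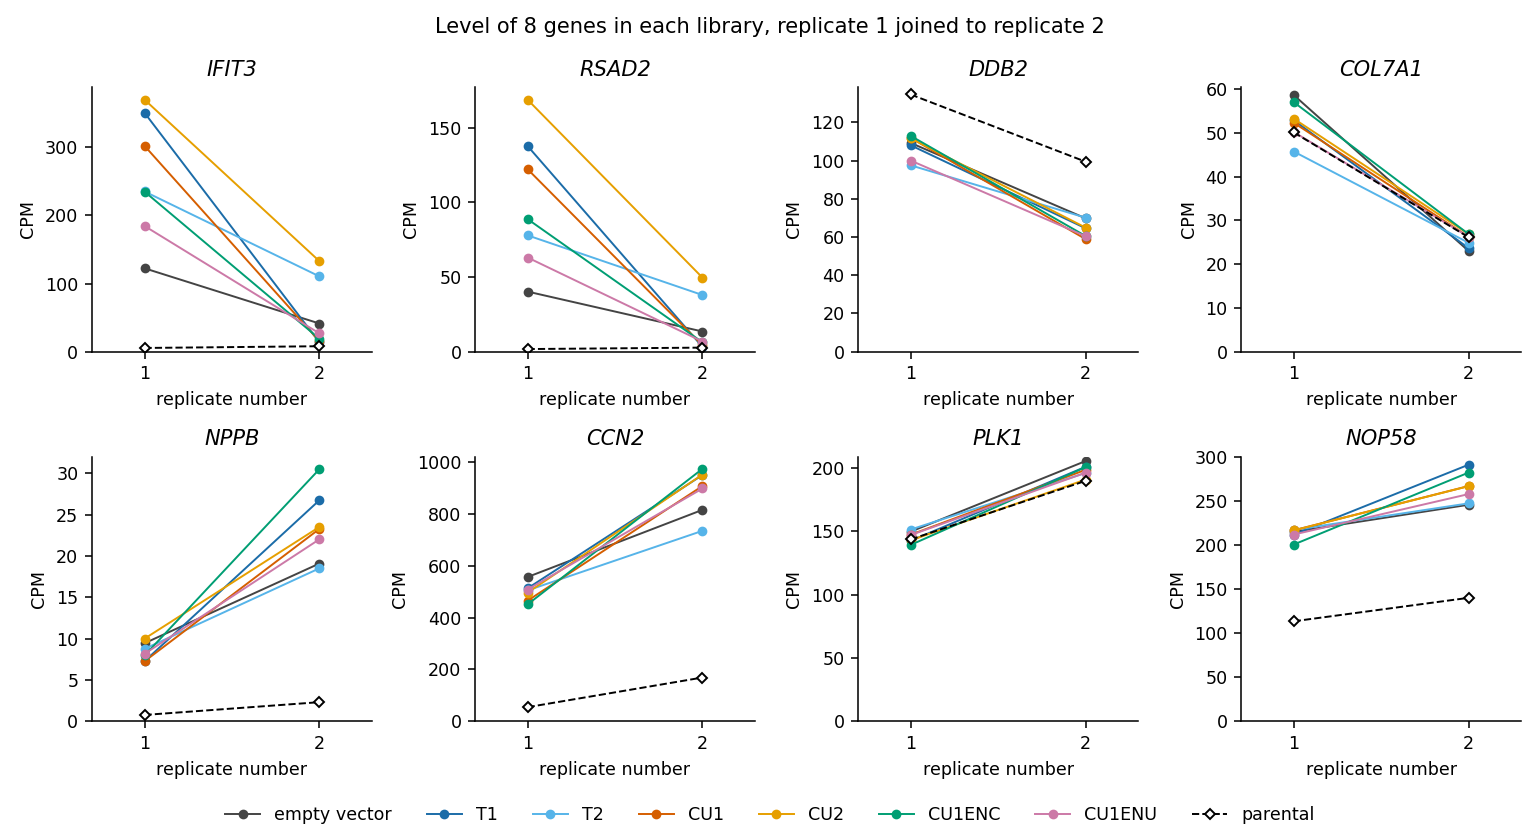
Level in CPM (vertical axes, from 0) of 8 genes in each library, with replicate 1 joined to replicate 2 of the same group; dashed diamonds are the parental pair. IFIT3 and RSAD2 fell in every transfected pair by very unequal amounts while parental cells stayed low, and DDB2, COL7A1, NPPB, CCN2, PLK1 and NOP58 moved the same way in parental cells.

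The depth was alike, at 15040770 to 17255935 counts in replicate 1 and 15468756 to 16375455 in replicate 2. The number of genes with a count was lower in replicate 2 in 7 of 7 pairs, at 25774 to 26293 against 26666 to 27461 (exact sign-flip permutation test over 7 pairs, two-sided p = 0.0156, the smallest that 7 pairs allow; adjusted over 7 measures, 0.0365). Parental cells had 26572 and 25529. The share of counts from mitochondrially encoded genes was also lower in 7 of 7 pairs, at 1.09% to 1.43% against 1.35% to 1.89% (same exact test, p = 0.0156, adjusted 0.0365), with parental cells at 2.11% and 1.01%. Each of 10 genes described for HEK293 cells exceeded 1 CPM in at least 1 library. Of these, 5 were higher and 4 lower in replicate 2, against 17.5% and 17.6% of all genes. Of 7 kidney tubule markers 4 stayed below 1 CPM, and LRP2, AQP1 and CUBN reached 15.4, 3.2 and 2.78 CPM. All 7 erythroid markers stayed below 1 CPM, HBG1 and HBG2 among them at 0 counts throughout, as did 9 of 11 leukocyte markers, with FCGR3A and MS4A1 at 0. Summed fibroblast markers ran from 140 to 157 CPM in replicate 1 and from 124 to 145 in replicate 2. Among keratinocyte markers, 6 of 8 were below 1 CPM, and KRT17, a keratin, reached 776 CPM, so that their sum ran from 497 to 593 CPM in replicate 1 and from 552 to 784 in replicate 2. Of the 2 tested, KRT17 was higher in replicate 2 (0.26) and SFN was lower (-0.52). The part of these shifts in the results below was not tested.

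The transgene was checked first. LINC01016 (ENSG00000249346, minus strand of chromosome 6 in GRCh38.p13, from 33867506 to 33896914) was present in the 12 libraries given a transcript, had 1 and 0 counts with empty plasmid and 0 counts in both parental libraries. By deposited total, it went from 6615 CPM in replicate 1 to 6235 in replicate 2 with T1 and from 5185 to 4754 with T2. It went from 10838 to 6138 with CU1, from 3078 to 2600 with CU2, from 7299 to 6507 with CU1ENC and from 12326 to 8417 with CU1ENU. Replicate 2 was thus lower in 6 of 6 pairs, most in CU1 and CU1ENU, while the ranges of the replicate sets overlapped. The mean log2 difference was -0.33 ± 0.29 (SD, n = 6; exact sign-flip permutation test, two-sided p = 0.0312, the smallest that 6 pairs allow). Without the CU1 pair it was -0.23. In edgeR over all genes, LINC01016 did not pass (-0.30, SE 0.11, adjusted p = 0.0804). In bulk RNA, fewer cells with plasmid and less transcript per cell cannot be told apart.

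The interferon response was far lower in replicate 2. All 43 interferon-stimulated genes of the list passed the test and all were lower, against 17.6% of genes tested, and 40 were at least 2-fold lower, against 1.84%. The median of the list was -1.82, from -3.09 to -0.75. For 26 of the 43, every replicate 2 library was below every replicate 1 library, against 5.5% of genes. The list was chosen with these results known, so the counts describe it.

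**Figure D2:**
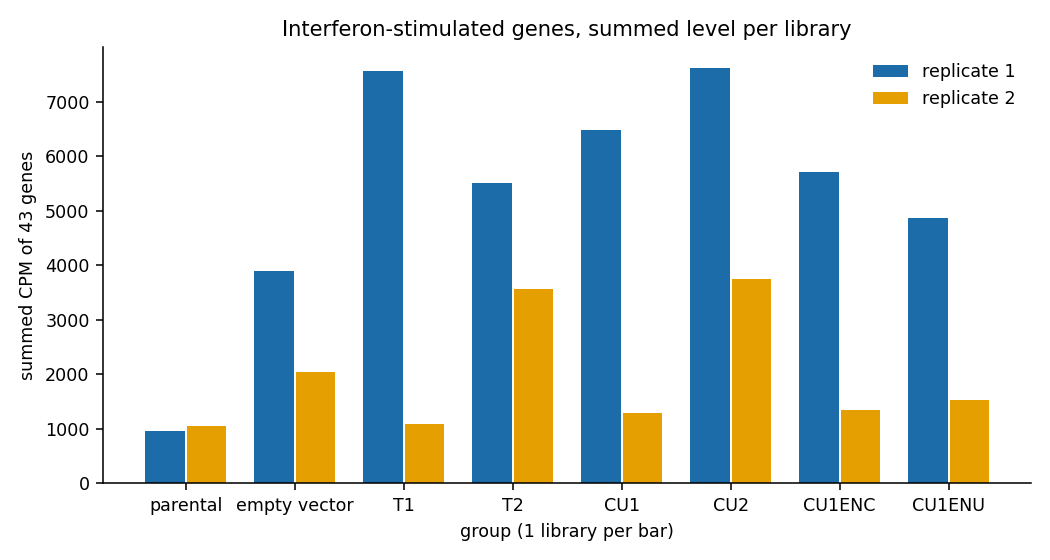
Summed CPM of the 43 interferon-stimulated genes (vertical axis, from 0) in each of the 16 libraries, 1 bar a library, by group and replicate number. Replicate 1 bars of transfected cells reach 3902 to 7619, replicate 2 bars 1095 to 3744, and the parental bars 961 and 1052.

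The amount of the fall varied among pairs. The summed level of the 43 genes went from 7572 to 1095 CPM with T1, from 6485 to 1292 with CU1, from 5712 to 1344 with CU1ENC and from 4875 to 1520 with CU1ENU. It went from 3902 to 2046 with empty plasmid, from 5518 to 3569 with T2 and from 7619 to 3744 with CU2. The T2 and CU2 libraries of replicate 2 thus kept the highest sums of that set, and 4 of the 7 came down to between 1095 and 1520, near the parental 961 and 1052. By pair, the median log2 difference of the list was -3.22 in T1, -2.77 in CU1, -2.27 in CU1ENC, -2.0 in CU1ENU, -1.19 with empty plasmid, -1.09 in CU2 and -0.72 in T2. The order of groups by interferon response therefore differed between the numbers: T1 was second of the 7 in replicate 1 and last in replicate 2.

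Effectors of the response led the list of falls. XAF1, a partner of the apoptosis inhibitor XIAP (ENSG00000132530, chromosome 17, 6755447 to 6775647), was at 5.40, 9.00 and 21.3 CPM in replicate 1 and 0.126, 0.588 and 4.21 in replicate 2. It fell by 3.09 on the log2 scale (SE 0.59, adjusted p = 0.00731). MX2, a GTPase that blocks nuclear entry of viral genomes, was at 5.83, 11.2 and 17.8 CPM against 0.0632, 1.31 and 4.08 (-2.97, SE 0.57, adjusted p = 0.00771). In both genes the replicate sets did not overlap. RSAD2, which makes an antiviral nucleotide, had 40.2, 88.7 and 169 CPM against 3.22, 6.79 and 49.5 (-2.72, SE 0.57, adjusted p = 0.0114), and the sets overlapped through the CU2 library of replicate 2 and the empty plasmid library of replicate 1. Its pair differences ran from -1.04 in T2 to -5.36 in T1 (SD 1.68 over 7 pairs), among the 5 widest of genes with a mean log2 CPM of at least 3. The other 4 were BST2, IFITM1, OAS2 and APOL6, with SDs of 1.57, 1.56, 1.92 and 1.71.

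BST2, the tether that holds budding virions at the cell surface and whose promoter is shown above, was at 35.7, 66.8 and 99.97 CPM against 2.15, 7.58 and 26.0 (-2.71, SE 0.51, adjusted p = 0.00732). IFIT3, a binder of foreign RNA, was at 122, 235 and 370 CPM against 13.7, 26.8 and 133 (-2.62, SE 0.55, adjusted p = 0.0111). ISG15, a ubiquitin-like modifier chosen for its promoter after its values were seen, was at 180, 286 and 376 CPM against 39.4, 46.3 and 166 (-1.99, SE 0.39, adjusted p = 0.0084). The membrane protein IFITM1 fell by 2.68, the RNA sensor OAS2 by 2.59, the frameshifting inhibitor SHFL by 2.60 (adjusted p from 0.00141 to 0.0176). The apolipoproteins APOL1 (-2.63) and APOL6 (-2.58) were also among the 10 largest falls. IRF9, STAT2, ISG20 and UBE2L6 were named for the lowest p on the list, a rule that favours falls of small spread. IRF9 was at 6.73, 8.68 and 11.04 CPM against 1.14, 2.53 and 3.69 (-1.77, SE 0.16, adjusted p = 9.2e-09). STAT2 was at 87.9, 103 and 138 CPM against 36.9, 41.1 and 72.9 (-1.15, SE 0.17, adjusted p = 0.00216). Neither overlapped between the sets. The exonuclease ISG20 and the ISG15 conjugating enzyme UBE2L6 fell by 1.20 and 2.34 and did not overlap either.

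The interferons themselves were near the limit of detection. IFNB1, interferon beta (chromosome 9, 21077104 to 21077942, minus strand), had 107 counts over the 7 libraries of replicate 1, from 7 to 29 a library, and 45 over replicate 2, from 2 to 18. It was lower in 6 of 7 pairs and higher in T2 (-1.23, SE 0.39, edgeR adjusted p = 0.0133), and without the CU1 pair the call was lost (adjusted p = 0.0856). IFNL1, an interferon lambda (chromosome 19, 39296407 to 39298673), had 97 counts against 32. These were from 7 to 18 a library in replicate 1 and from 0 to 11 in replicate 2. IFNL1 was lower in 7 of 7 pairs (-1.57, SE 0.40, edgeR adjusted p = 0.00265). Both had 0 counts in both parental libraries. IFNL2 and IFNL3, near-identical copies whose reads may be shared, had 48 against 25 and 53 against 23 counts and did not pass. Among receptor genes, IFNAR1 was at 66.2 to 76.8 CPM in replicate 1 and 69.4 to 82.2 in replicate 2 (0.04, adjusted p = 0.483). IL10RB, a subunit of the lambda receptor, had 60 against 83 counts and did not pass (0.57, adjusted p = 0.2). Of 12 tested interferons, receptors and receptor kinases, 3 were lower and 2 higher, against 17.6% and 17.5% of all genes. The lower ones were IFNB1, IFNL1 and TYK2 (-0.19, SE 0.03), and the higher ones the kinase JAK1 (0.13) and IFNGR2 (0.13). With the low-count filter set by replicate number 9 were tested, with 2 lower and 2 higher. DESeq2 gave 2 lower and 2 higher of 12.

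Of 13 tested nucleic acid sensors and adaptors, 6 were lower, against 17.6% of all genes, and none higher in edgeR. The double-stranded RNA receptor TLR3 fell by 1.15 (SE 0.19, adjusted p = 7.81e-05), the helicase DHX58 by 2.08 and the DNA sensor IFI16 by 1.20. DHX58 and IFIH1 also stand in the interferon-stimulated list. The adaptor MAVS, at 138 to 145 CPM against 135 to 154 (0.03, adjusted p = 0.49), and the DNA sensor CGAS, at 1.79 to 3.46 against 2.28 to 4.43 (0.05, adjusted p = 0.842), did not pass. Of 18 antigen presentation genes of MHC class I, 15 were lower, against the same 17.6%, and none higher, with a median of -0.57. PSME1 and PSME2, the activator subunits of the immunoproteasome, fell by 0.56 and 0.35, and the peptide transporter subunit TAP2 by 0.59 (SE 0.07, adjusted p = 5.84e-07). PSME1 was at 65.7, 80.8 and 83.2 CPM against 45.7, 54.5 and 60.8, without overlap. Of 19 NF-kB and inflammatory genes, 9 were lower (47.4%, against 17.6%) and 2 higher. They included the chemokine CXCL8 (-0.78, SE 0.13), the inhibitor NFKBIA (-0.34, SE 0.06) and the interferon-induced chemokine CXCL10 (-2.07, SE 0.44), which stayed below 2 CPM.

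In parental cells the interferon-stimulated genes were low under both numbers. The list's median in the parental pair was 0.15, with 32 of 43 genes higher and 11 lower in replicate 2, values with no test. IFIT3 was at 5.51 and 8.04 CPM, RSAD2 at 1.78 and 2.74 and STAT2 at 57.7 and 48.7. The test of the difference between transfected and parental cells, with 1 parental pair whose spread was assumed to be that of transfected pairs, passed 0 of 43 genes in edgeR. At an unadjusted p under 0.05 it gave 2, and DESeq2 also passed 0, with 32 unadjusted. IRF9 alone passed with no filter on low counts (adjusted p = 0.00228) and without the T2 pair (0.0363). The median of that difference over the list was -1.74. For genes near 0 in parental cells the test could hardly detect a difference. XAF1 was at 0 and 0.122 CPM there (SE of the difference 9.50) and MX2 at 0 and 0.427 CPM (SE 6.67). A difference between transfected and parental cells in this response was therefore not shown by the test, apart from IRF9 under those settings, and for such genes it could not be decided.

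Outside the interferon genes, most differences also appeared in parental cells. Of the 3210 genes higher in replicate 2 with a mean log2 CPM of at least 3, 84.9% were higher in replicate 2 of parental cells too, and of 2118 lower ones 82.4% were lower there. Over all 11357 genes at that level, 56.4% were higher in the parental pair. Across those genes the fitted difference in transfected cells and the difference in the parental pair had a Pearson r of 0.48 and a Spearman rho of 0.57, and without the interferon-stimulated genes r was 0.58. Genes are not independent replicates, and no library is shared between the measures. In the parental pair 909 genes were at least 1.5-fold higher in replicate 2 (4.76%) and 1879 lower (9.84%). These values of parental cells, which were never transfected, rest on 1 pair and have no test.

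**Figure D3:**
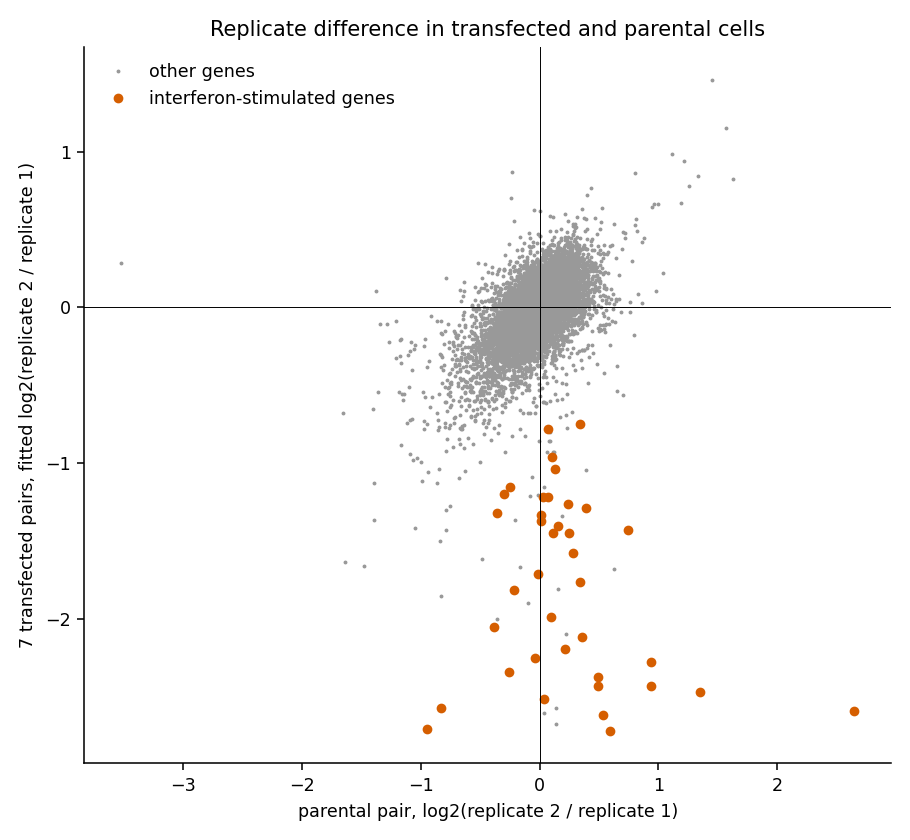
Log2 of replicate 2 over replicate 1 in the parental pair (horizontal axis) against the fitted value in the 7 transfected pairs (vertical axis), 1 point a gene, for 11357 genes with a mean log2 CPM of at least 3. Grey points form a cloud that rises from lower left to upper right, and the interferon-stimulated genes (orange) lie between -0.75 and -2.72 on the vertical axis with no matching shift on the horizontal one.

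Most targets of YAP and TEAD were higher in replicate 2. Of 22 tested targets 14 were higher, against 17.5% of genes, and 3 lower (1 without the T1 or the CU1ENU pair), with a median of 0.26. For 10 of them every replicate 2 library was above every replicate 1 library, against 7.72% of genes. Summed over the list, replicate 1 ran from 2195 to 2367 CPM and replicate 2 from 2804 to 3599, with parental cells at 930 and 1142.

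NPPB, the precursor of brain natriuretic peptide (ENSG00000120937, chromosome 1, 11857464 to 11858945, minus strand), rose most among genes with a mean log2 CPM of at least 1. It had 7.26, 8.16 and 9.99 CPM in replicate 1 and 18.5, 23.3 and 30.5 in replicate 2, 2.75-fold (1.46, SE 0.10, adjusted p = 2.81e-08). Every replicate 2 library was above every replicate 1 library, and the parental libraries had 0.770 and 2.32 CPM. EDN1, the precursor of the vasoconstrictor endothelin-1, was at 6.99, 8.30 and 10.0 CPM against 14.2, 20.3 and 22.3 (1.16, SE 0.10, adjusted p = 1.44e-08), with 0.947 and 3.05 in parental cells. CCN2, a matricellular growth factor, was the most abundant of the 10 largest rises, at 451, 505 and 556 CPM against 734, 907 and 973 (0.83, SE 0.08, adjusted p = 0.000236). Parental cells had 54.5 and 169. All of these pairs moved in the same direction. CCN1 and ANKRD1, a related secreted factor and a muscle stress protein named after their values were seen, rose by 0.66 and 0.65 without overlap. MYOF, a membrane repair protein, rose by 0.78 (SE 0.06), the ligand TGFB2 by 0.72 (SE 0.07) and the transmembrane protein CRIM1 by 0.35 (SE 0.03). TAGLN, an actin cross-linker of smooth muscle, was at 20.01, 25.5 and 30.96 CPM against 35.2, 51.3 and 59.7 (0.99, SE 0.15, adjusted p = 0.00291). ACTN4, an actin-bundling protein, had 326, 332 and 345 CPM against 453, 480 and 497 (0.51, SE 0.03, adjusted p = 1.23e-14), with a spread of only 0.05 (SD) over the 7 pairs. The neural adhesion protein NEGR1, MAP3K7CL, the carboxypeptidase CPA4, C5orf46, TINAGL1 and the pseudogene IRS3P completed the 10 largest rises, from 0.86 to 1.10. Those of lowest p also included the secreted chaperone CLU (0.57, SE 0.03), the small MAF factor MAFK (0.54, SE 0.03) and UBE2QL1 (0.76, SE 0.05). Of 15 TGF-beta and BMP feedback genes 8 were higher and 2 lower, against 17.5% and 17.6% of all genes. The higher ones included SMAD7 (0.43), the BMP antagonist NOG (0.58) and PMEPA1 (0.40).

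More than 17.5% of the members passed as higher in replicate 2 in each of 5 lists, by small amounts. They cover mitosis, the G1 to S transition, ribosome biogenesis, the proteasome and RNA splicing. Among genes with a mean log2 CPM of at least 3 that share was 28.3%. Of 30 G2 and mitosis genes 20 were higher and none lower in edgeR, with a median of 0.16 and 28 of 30 also higher in the parental pair. The mitotic kinase PLK1 was at 139, 147 and 151 CPM against 191, 199 and 205 (0.44, SE 0.03, adjusted p = 1.06e-12), with 144 and 190 in parental cells. The activator of the anaphase-promoting complex CDC20 rose by 0.37 and the kinase AURKA by 0.42. Of 30 genes of the G1 to S transition 15 were higher and 2 lower, the higher ones including CCNE1 (0.35), CHAF1A (0.24) and FEN1 (0.20). Scaled by library totals alone, 10 were higher and 3 lower. Of 30 ribosome biogenesis factors 23 were higher and none lower, with a median of 0.20, and 27 were higher in parental cells. The snoRNP protein NOP58 was at 201, 215 and 217 CPM against 246, 267 and 291 (0.31, SE 0.03, adjusted p = 2.66e-08), and nucleolin (NCL) and fibrillarin (FBL) each rose by 0.25. No overlap was seen in these 3 genes. Of 31 proteasome subunits 17 were higher and none lower (PSMC4 by 0.27, PSMD1 by 0.25, PSMD8 by 0.24). Of 30 SR proteins, hnRNPs and CLK kinases 17 were higher and 2 lower (HNRNPL by 0.29, HNRNPU by 0.20, SRSF2 by 0.22).

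Stress lists other than interferon differed in how many members were higher in replicate 2, and are read against 17.5% of all genes and 28.3% of those with a mean log2 CPM of at least 3. Of 25 unfolded protein response genes 16 were higher and none lower in edgeR, with a median of 0.13. Scaled by library totals alone, 11 were higher and 2 lower. The ER chaperone HSPA5 rose by 0.37 (SE 0.04), HYOU1 by 0.29 and HERPUD1 by 0.39. The integrated stress response had 15 of 34 higher and 4 lower, with a median of 0.04, led by the amino acid transporter subunits SLC7A5 (0.37) and SLC3A2 (0.31) and the factor CEBPG (0.29). With library totals that list had 12 higher and 5 lower. Heat shock genes had 11 of 22 higher and 3 lower, with the cochaperones BAG3 (0.37) and STIP1 (0.25) and HSP90AB1 (0.24). NRF2 targets had 9 of 18 higher and none lower, with TXNRD1 (0.30), GCLC (0.26) and ME1 (0.25). Immediate-early genes had 14 of 30 higher and 7 lower. Among the higher were KLF4 (0.40) and the phosphatases DUSP1 (0.40) and DUSP4 (0.48), while the median of the list in the parental pair was -0.11. Hypoxia and glycolysis genes went both ways, with 11 of 30 higher, such as GPI (0.42), ADM (0.51) and SLC2A1 (0.34), and 8 lower. Lysosome and autophagy genes had 7 of 24 higher and none lower, with MAP1LC3B (0.21), CTSL (0.17) and ATP6V0D1 (0.18), a share near the 28.3%.

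Most p53 targets on the list used were lower in replicate 2. Of 25 tested, 19 were lower, against 17.6% of genes, and only PLK2 was higher (0.24), with a median of -0.30. The growth arrest gene GADD45A, given below, is not on this list and had a higher median level in replicate 2. For 14 of them every replicate 2 library was below every replicate 1 library, against 5.5% of genes. DDB2, a DNA damage recognition protein (chromosome 11, 47214465 to 47239217), was at 97.5, 109 and 113 CPM against 58.9, 64.6 and 70.1 (-0.75, SE 0.04, adjusted p = 5.86e-13). The mitochondrial reductase FDXR fell by 0.72 (SE 0.05) and the antiproliferative factor BTG2 by 0.41 (SE 0.04). Parental cells moved likewise, at 135 and 99.4 CPM for DDB2, 66.5 and 48.1 for FDXR and 125 and 102 for BTG2, and 23 of 25 genes were lower in replicate 2 of that pair. Clock genes had 8 of 17 lower and 1 higher, with CRY2 (-0.40), PER2 (-0.38) and PER3 (-0.43) lower, and 14 of 17 lower in parental cells.

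The 4 lower genes of lowest p were COL7A1, NECTIN4, TNNT1 and GPR50. COL7A1, the collagen of anchoring fibrils (chromosome 3, 48564073 to 48595267, minus strand), was at 45.7, 52.9 and 58.6 CPM against 23.0, 26.2 and 26.9 (-1.06, SE 0.05, adjusted p = 8.6e-16). Parental cells had 50.1 and 26.1, nearly the same fall. The adhesion receptor NECTIN4 was at 23.9, 28.1 and 31.1 CPM against 8.66, 10.2 and 12.7 (-1.37, SE 0.07, adjusted p = 7.29e-15). Parental cells had 43.7 and 16.6. TNNT1, a slow muscle troponin, fell by 1.05 (SE 0.06) and the orphan receptor GPR50 by 1.43 (SE 0.08). Collagen and matrix genes as a list went both ways, 10 of 22 lower and 6 higher, against 17.6% and 17.5% of all genes. COL4A5 (-0.32), COL9A2 (-1.13) and COL3A1 (-1.18) were among the lower. Of 16 neuronal cytoskeleton and kidney development genes 6 were lower and 2 higher, against the same shares. The neurofilaments NEFM (-0.58) and NEFH (-0.49) and the kidney factor PAX2 (-1.07) were lower.

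**Figure D4:**
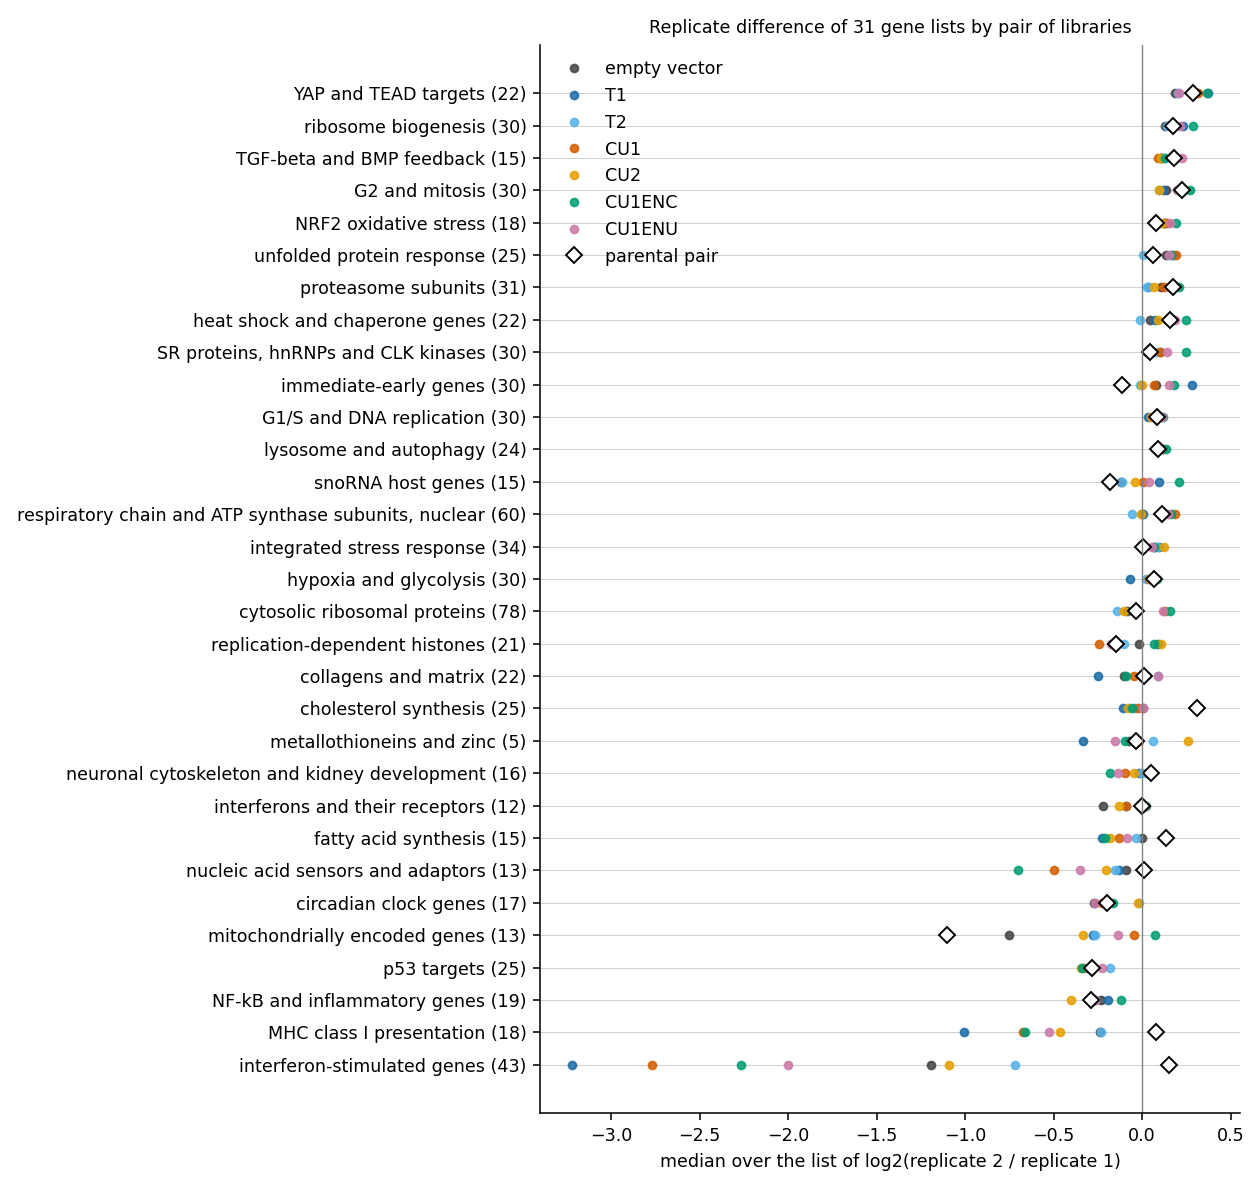
Median log2 of replicate 2 over replicate 1 (horizontal axis) of each of 31 gene lists, with the genes tested in brackets; coloured points are the 7 transfected pairs and open diamonds the parental pair. Interferon-stimulated and MHC class I genes spread far to the left in transfected pairs with the diamond near 0, mitochondrially encoded genes lie farther left in parental cells, and the diamond of cholesterol synthesis stands to the right at 0.31.

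Long non-coding RNAs, with the LINC01016 locus left out, took a smaller share of counts in replicate 2, a comparison chosen after the data were seen. They made up 3.005% to 3.58% of counts in replicate 1 and 2.60% to 2.97% in replicate 2, lower in 7 of 7 pairs (exact sign-flip permutation test, p = 0.0156, the smallest possible), with 4.27% and 3.56% in parental cells. Of 3525 tested, LINC01016 among them, 367 were lower (10.4%) and 104 higher (2.95%). Protein-coding genes had 2847 of 14420 lower (19.7%) and 3208 higher (22.2%). The nuclear paraspeckle RNA NEAT1 was at 215, 248 and 296 CPM against 144, 152 and 167 (-0.70, SE 0.05, edgeR adjusted p = 9.16e-07), and the nuclear speckle RNA MALAT1 fell by 0.68 (SE 0.04). The imprinted RNA MEG3 was at 2.82, 3.32 and 4.38 CPM against 0.328, 0.628 and 0.784 (-2.53, SE 0.21, adjusted p = 9.63e-11), with 4.14 and 0.914 in parental cells. These 3 genes were chosen after their values were seen.

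Mitochondrially encoded genes fell by more in the parental pair than in transfected cells, and the count in transfected cells depended on single pairs. Of 13 genes 4 were lower in transfected cells, against 17.6% of all genes, with a median of -0.24. The count was 1 without the T1 or the CU2 pair, 2 without T2 and 8 without the empty plasmid pair. MT-CO1, an oxidase subunit, was at 3975, 4579 and 5508 CPM against 3205, 3341 and 3997 (-0.40, SE 0.07, adjusted p = 0.00388). MT-CO2 and MT-ND6 fell by 0.34 and 0.55 and both lost the call without the T1 pair (adjusted p = 0.0544 and 0.059) or the CU2 pair (0.058 and 0.0554), MT-ND6 also without T2 (0.0509). In parental cells all 13 were at least 1.5-fold lower in replicate 2, with a median of -1.10. None of the 13 passed edgeR's test of the difference, which rests on 1 parental pair, and 10 had an unadjusted p under 0.05. The median of that difference was 0.81. Nuclear-encoded respiratory chain subunits had 12 of 60 higher (near the 17.5% of all genes; 19 without the T2 pair) and 3 lower, with NDUFB7 (0.29), COX6B1 (0.26) and UQCRFS1 (0.20) higher.

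The remaining lists held few calls, and are read against 17.5% of all genes higher and 17.6% lower. Cytosolic ribosomal proteins had 7 of 78 higher and 9 lower, with RPL28 (-0.23) and RPS9 (-0.16) among the lower ones, and over alternative settings the counts ran from 5 to 15 higher and from 6 to 15 lower, so no direction is given. Histones had 1 of 21 higher and 2 lower. Small nucleolar RNA host genes had 4 of 15 higher, among them SNHG3 (0.35), SNHG7 (0.31) and SNHG32 (0.15), and 2 lower. Without the CU1ENC pair 3 were higher and 3 lower. In the parental pair 13 of the 15 were lower in replicate 2, with a median of -0.18, values with no test. None of 5 metallothionein and zinc genes passed in edgeR or DESeq2, and none had an unadjusted p under 0.05.

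Genes of lipid synthesis made up 5 of the 12 whose replicate difference was not the same in transfected and parental cells. The test of the replicate difference in transfected minus parental cells, over 19316 genes and 16 libraries, passed 0.0621% of genes. Of the 12, 4 belong to the 25 genes of cholesterol synthesis and 1 to the 15 of fatty acid synthesis. In the parental pair 23 of 25 cholesterol genes were higher in replicate 2, with a median of 0.31. In transfected cells the median was -0.04, with 2 higher and 8 lower, against 17.5% and 17.6% of all genes.

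HMGCS1, the synthase that makes HMG-CoA (chromosome 5, 43287470 to 43313512, minus strand), was at 633, 654 and 699 CPM in replicate 1 and 499, 556 and 572 in replicate 2 (-0.28, SE 0.03, adjusted p = 1.13e-08). Parental cells went up, from 616 to 778, and the difference of differences was -0.61 (SE 0.09, adjusted p = 0.000505). IDI1, the isopentenyl diphosphate isomerase, was at 157, 177 and 193 CPM against 147, 155 and 171 and went from 160 to 234 in parental cells (-0.68, SE 0.09, adjusted p = 0.000505). The epoxidase gene SQLE (-0.50, adjusted p = 0.0116) and the thiolase gene ACAT2 (-0.42, adjusted p = 0.033) also passed and did not differ by more than 0.03 between the numbers in transfected cells. The stearoyl-CoA desaturase SCD went from 449 to 596 CPM in parental cells and fell by 0.24 in transfected ones (-0.65, adjusted p = 0.0357). INSIG1, the ER anchor of the SREBP pathway, fell by 0.54 in transfected cells and went from 148 to 233 CPM in parental cells, but its difference did not pass (-1.19, adjusted p = 0.102). The sterol carrier STARD4 (-0.30), the carboxylase ACACA (-0.34) and the desaturase FADS2 (-0.26) fell in transfected cells, and their differences did not pass either (adjusted p = 0.176, 0.176 and 0.318).

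**Figure D5:**
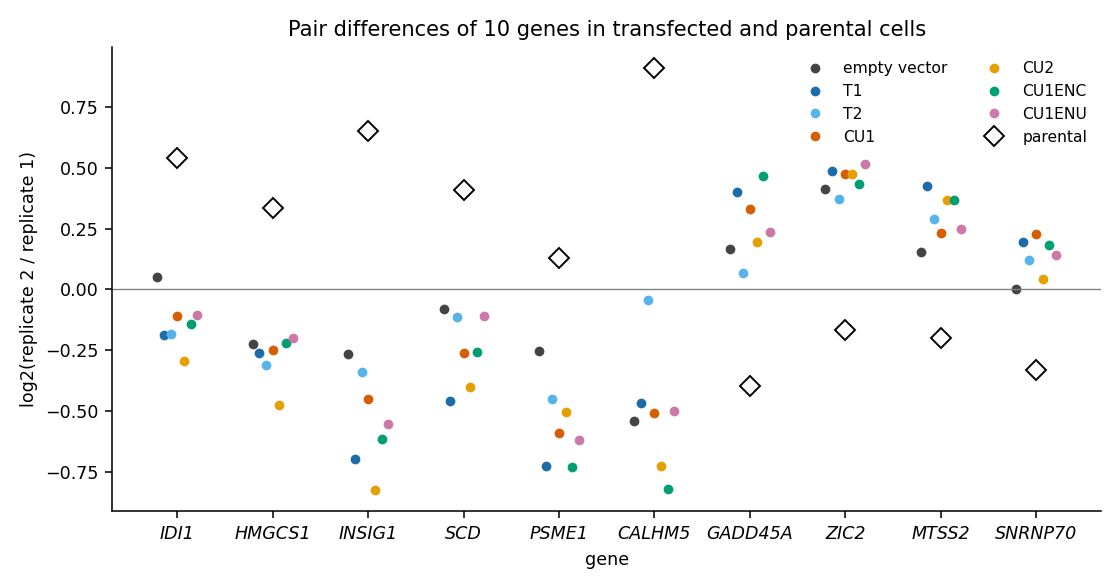
Log2 of replicate 2 over replicate 1 (vertical axis) for 10 genes, with coloured points for the 7 transfected pairs and an open diamond for the parental pair. For IDI1, HMGCS1, INSIG1, SCD, PSME1 and CALHM5 the diamond lies above all points, and for GADD45A, ZIC2, MTSS2 and SNRNP70 below all points.

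The growth arrest gene GADD45A, which the YAP and TEAD list also holds, was at 203, 213 and 237 CPM against 223, 259 and 303 and went from 79.0 to 60.0 in parental cells (0.66, SE 0.12, adjusted p = 0.023). The neural transcription factor ZIC2 was at 54.0, 54.8 and 57.4 CPM against 70.3, 74.9 and 80.5, without overlap, and went from 62.4 to 55.5 in parental cells (0.62, SE 0.10, adjusted p = 0.00553). MTSS2 (0.50), the splicing factor SNRNP70 (0.46), PSME1 (-0.68), CALHM5 (-1.43) and the matrix protein TNC (-0.51) made up the other 5 (adjusted p from 0.023 to 0.033). Without the CU1 pair only IDI1, HMGCS1, ZIC2 and SQLE passed, and these 4 passed under all 15 alternatives tried. The test rests on a single parental pair, so a shift in 1 parental library and a difference between transfected and parental cells cannot be told apart.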

How the data were processed

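RNA-seq of 16 HEK293 libraries was used, from strand-specific (dUTP) paired-end libraries, with RNA integrity above 9 per the labels' protocols. The authors deposited whole-number counts per gene, without normalization. Per the file headers, featureCounts 2.0.1 counted paired reads on the reverse strand (option 2) over the exons of each Ensembl release 101 gene. Per the submitters' processing notes the build was GRCh38.p13 and the tools included HISAT2 and DESeq2. Aligner settings and the handling of multiply matching reads are not given in the sources used, so counts of near-identical copies and pseudogenes are uncertain. Symbols from the supplied names matched 60401 of 60671 genes.

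Members, gene lists and rules were chosen with earlier results of these data known. Groups and replicate numbers come from the sample titles. edgeR 4.0.16 in R 4.3.3 was fitted to the 14 transfected libraries with group and replicate number as terms (6 residual degrees of freedom), TMM scaling (factors 0.976 to 1.02) and filterByExpr by group (minimum count 10, total 15). The quasi-likelihood F-test was robust, with Benjamini-Hochberg adjustment over all genes. The standard error is the absolute log2 fold change over the square root of F. The second fit added the parental pair and its interaction with replicate number. Pair differences use log2 CPM with a prior count of 2, and printed CPM are TMM-scaled over 16 libraries, except LINC01016. Single values were compared by exact sign-flip permutation of pairs. The scripts were tested on simulated data. Libraries of a replicate set differed beyond counting noise (chi-square per degree of freedom 2.38 to 15.9), so none was taken as a repeat. P-values measure the spread between these libraries only.

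Genes were named by rule: LINC01016, then, among passing genes with a proper symbol, log2 CPM averaging at least 1 and the same sign in 7 pairs, the 10 largest rises and falls and 4 lowest p each way. Up to 4 members of lowest p per list (3 outside the interferon lists), 5 genes of largest spread over pairs and 5 largest interaction effects each way were added. Alternatives were DESeq2 1.42.0, limma 3.58.1, other scalings and filters, an unpaired fit, the transgene locus left out and each pair left out. Scaling by library totals, the gene types and the share of long non-coding RNA were added after the data were seen. A few genes are not reported here.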

Additional observations from a re-analysis of the deposited data

Results flagged for a closer look

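Of 256 sets of 7 libraries examined among the named genes, 11 held a library set far apart from the other 6 (Dixon's criterion at the 95% level). Chance alone would give about 1 in 20 of such sets, so the 11 are no more than that. In replicate 1 these were high values of CHAF1A in CU1ENU (163.6 CPM, next 155), MT-ND6 with empty plasmid (267, next 204), GCLC in CU2 (93.4, next 86.2), PSMD8 in T2 (289, next 264) and PAX2 in T1 (8.19, next 5.95). Low values in replicate 1 were FEN1 with empty plasmid (136 CPM, next 150), NOP58 in CU1ENC (201, next 212), SRSF2 in CU1ENC (404, next 419) and COL9A2 in CU1ENU (2.85, next 4.15). In replicate 2 CU2 was high for SHFL (7.64 CPM, next 3.87) and CHAF1A (198.6, next 183).

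The replicate difference itself differed between transfected and parental cells, by edgeR's test of the interaction with a single parental pair, for 9 of the named genes. In transfected minus parental cells it was -0.68 for PSME1, -0.61 for HMGCS1, -0.65 for SCD, -1.43 for CALHM5 and -0.68 for IDI1. It was 0.66 for GADD45A, 0.62 for ZIC2, 0.50 for MTSS2 and 0.46 for SNRNP70.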

How the results depend on the processing

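Of 125 named results, 116 kept their direction and their side of the threshold under every alternative, and none reversed. The 9 others were IFNB1, MT-CO2, MT-ND6 and 6 of the interaction genes (PSME1, SCD, GADD45A, MTSS2, SNRNP70 and CALHM5). TNC and ACAT2, not counted among these 9, also lost the interaction call without the CU1 pair. ACAT2 lost it without the pairing of groups too. Without the pairing of groups as a block, 3383 genes were higher and 3482 lower in replicate 2, and 9 passed the interaction test. The pairs themselves were weakly marked, by Pearson r of each library's deviations from its replicate set's mean over 10802 genes. Within a pair r was 0.69 with empty plasmid and from -0.12 to 0.20 with the 6 transcripts. Each replicate 1 library of those 6 had a higher r, from 0.18 to 0.35, with a replicate 2 library of another group. The count of interaction genes moved most: 76 with no filter on low counts, 24 with DESeq2 and, with each pair left out, from 4 (without CU1) to 34 (without the empty plasmid pair), with 19 without T2. At least 2-fold higher genes numbered 4 and lower ones 228 with the filter set by replicate number, and 4 and 233 with DESeq2, the first of which tested 17599 genes. Other causes were not tested. With 1 pair left out, higher genes ran from 3022 to 3423 and lower ones from 2797 to 3132. Leaving out 1 pair moved the mean LINC01016 difference from -0.381 to -0.234, at p = 0.0625 by exact permutation, the smallest that 5 pairs allow. All 43 interferon-stimulated genes stayed lower, with 42 or 43 passing. Lists given above with none in 1 direction had at most 2 there under any alternative. Depth limits the interferon genes, whose counts were at most 29 a library.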

Other observations

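BCYRN1, a small neuronal cytoplasmic RNA with many Alu-related copies in the genome and thus uncertain counts, stood high in 3 libraries that no group or number unites. It was at 81.9 and 152 CPM in replicates 1 and 2 of CU1ENC and at 60.7 CPM in replicate 1 of parental cells, against 5.18 CPM in replicate 2. CU1ENU had 13.9 and 6.14 CPM, and the other 10 libraries were between 4.32 and 8.86 CPM. It was singled out after its values were seen.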
